A study of Mus musculus with 9 samples.

Results

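Calcium channels, pumps and buffers of the mouse uterus were described through 9 genes: the vanilloid channels Trpv6 and Trpv4, the channel kinase Trpm7, the store-operated pair Orai1 and Stim1, the cytosolic buffer S100g, the plasma membrane pumps Atp2b1 and Atp2b4, and Clca3, a member of the calcium-activated chloride channel regulator family. They were chosen by name from 35930 annotated genes, with their group levels in these data already known, and all 9 were among the 13333 genes that passed the filter on low values. Their differences between groups are therefore descriptions. The limma fit was made over all genes, the members included. How many of them passed its thresholds, in the main fit and in the alternatives, is stated as a count that supports nothing. Each gene was given the summed FPKM (fragments per kilobase of transcript, scaled to the mapped fragments of the library) of its annotated transcripts.

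In an epithelial cell that transports calcium, the ion enters through apical channels such as TRPV6, is carried across the cytosol by a calbindin such as S100G (calbindin-D9k), and leaves through plasma membrane calcium pumps of the ATP2B family. Most cells refill their calcium stores by store-operated entry, in which STIM1 senses the calcium of the endoplasmic reticulum and opens ORAI1 at the plasma membrane. In the uterus, S100g and Trpv6 are known as genes under the control of ovarian steroids, and free calcium serves both epithelial secretion and contraction of the myometrium.

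The libraries came from whole uteri of C57BL/6 females, 3 libraries per group. All mice had been primed with 1 mg progesterone and with estradiol at 10 mg/kg per day for 3 days, and each group then received 50 µl of fluid in the uterine horns. Control mice received embryo culture medium that had held no embryo, competent mice received pooled medium of 9 developmentally competent human embryos, and arrested mice received pooled medium of 18 human embryos that had stopped developing. The mice are given as 25 days old in the treatment protocol and as 21 days old in the design text, and both ages describe immature females. The labels do not say that each library is a separate animal, so p-values reflect only how these samples vary, and part of that variation may be technical. The embryo media were pooled, so the 3 libraries of a group do not sample 3 sets of embryos.

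Depth in reads is unknown. Coverage summed over transcripts came to 1077 to 1972 Mb per library, and coverage per FPKM was constant within a library, so the coverage values hold no information beyond FPKM. The first principal component (16.6% of the variance) placed arrested library 3 at 90.7 and the other 8 libraries between -25.1 and 4.83. The arrested minus competent differences of S100g, Clca3, Trpv6 and Trpv4 are given with and without that library. By their mean over all libraries, 8 of 9 uterus identity genes and 11 of 12 epithelial genes had at least 1 FPKM. Esr1 and Pgr, which count among these 8, were listed at 0 in 8 and 6 of the 9 libraries from annotated transcripts. The summed epithelial markers were at 2731 to 3284 FPKM in control, 2900 to 3303 in competent and 2316 to 3396 in arrested libraries. The summed adipocyte markers reached 1302 FPKM in arrested library 2 and at most 163 in the other 8 libraries. Summed erythroid markers were at 937 to 1500 FPKM in control, 747 to 3966 in competent and 2091 to 4842 in arrested libraries, and summed stromal markers at 1867 to 2257, 1505 to 2191 and 1544 to 2954. The part of these markers in the differences of the members was not tested.

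S100g, Clca3 and Trpv6 were expressed far above the other members and carry the differences described here, so the bases just before their annotated starts are shown. Each line is a window of 300 bases read 5′ to 3′ on the gene's own strand from the NCBIM37 genome, at chrX:159402532-159402831 for S100g, chr3:144695741-144696040 for Clca3 and chr6:41586405-41586704 for Trpv6, all on the minus strand. Capitals mark matches, on either strand, to the steroid receptor half-sites GGTCA and TGTTCT, which a match on the opposite strand shows as their reverse complements.
S100g: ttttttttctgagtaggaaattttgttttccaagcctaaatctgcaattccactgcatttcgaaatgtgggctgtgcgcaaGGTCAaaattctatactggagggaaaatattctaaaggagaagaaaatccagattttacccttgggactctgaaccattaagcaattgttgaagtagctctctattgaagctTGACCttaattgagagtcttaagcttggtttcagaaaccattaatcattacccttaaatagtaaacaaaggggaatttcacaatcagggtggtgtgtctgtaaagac
Clca3: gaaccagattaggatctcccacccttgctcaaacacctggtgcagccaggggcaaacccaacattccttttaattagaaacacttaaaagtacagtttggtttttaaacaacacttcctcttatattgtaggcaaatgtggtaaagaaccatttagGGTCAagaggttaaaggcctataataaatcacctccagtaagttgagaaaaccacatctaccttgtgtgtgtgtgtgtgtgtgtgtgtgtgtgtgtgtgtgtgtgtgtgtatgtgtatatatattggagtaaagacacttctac
Trpv6: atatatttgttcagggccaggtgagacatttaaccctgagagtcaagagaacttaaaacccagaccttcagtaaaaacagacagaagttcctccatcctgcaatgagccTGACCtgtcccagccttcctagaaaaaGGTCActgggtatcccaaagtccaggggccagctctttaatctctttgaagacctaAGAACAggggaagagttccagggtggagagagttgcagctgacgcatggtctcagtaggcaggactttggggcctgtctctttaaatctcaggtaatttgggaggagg
GGTCA is the half-site of the estrogen response element and TGTTCT that of the element bound by the progesterone and glucocorticoid receptors. In S100g, GGTCA matched 219 and 107 bases before the start, in Clca3 144 bases before it, and in Trpv6 191 and 164 bases before it, with TGTTCT at 108 bases. Windows of this length before 22366 gene starts held GGTCA in 38.8% of cases and TGTTCT in 17.1%. The full estrogen response element, GGTCA followed after any 3 bases by its reverse complement, was present in 0.0537% of windows. That element and the TATA box letters TATAAA, present in 14.5% of windows, were found in none of the 9 members' windows, whereas GGTCA was in 5 of 9. A match to such short letters is a description of the sequence, not a binding site.

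S100g varied most among the members that were above 0 in every library. It encodes a small EF-hand protein that buffers and shuttles calcium in the cytosol, and its gene lies at chrX:159399924-159402531 on the minus strand (ENSMUSG00000040808), with 1 annotated transcript of 480 bases in 3 exons. Control libraries 1, 2 and 3 stood at 616, 623 and 199 FPKM, competent libraries at 270, 241 and 224 FPKM, and arrested libraries at 1281, 619 and 6367 FPKM. All 3 arrested libraries lay above all 3 competent libraries, the 3 competent libraries lay close together, and the controls spanned from below the competent group to the level of arrested library 2. Group means were 479 ± 242 FPKM in control, 245 ± 23.0 in competent and 2756 ± 3145 in arrested (SD, n = 3). The arrested mean was 11.3 times the competent mean, and most of that ratio came from 1 library. On the log2(FPKM + 1) scale, arrested minus competent was 2.81 ± 0.80 (SE of the fit), and 1.86 without arrested library 3. The same scale gave 2.01 ± 0.80 for arrested minus control, or 1.07 without arrested library 3. For competent minus control it gave -0.80 ± 0.80, which became -1.34 without control library 3.

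S100g was also set against the epithelial markers. As a share of the summed epithelial markers of its library, S100g stood at 19.1, 19.0 and 7.30% in control, 8.16, 7.80 and 7.72% in competent and 37.7, 26.7 and 234.8% in arrested libraries. All 3 arrested libraries lay above all 3 competent libraries in this form too, and the part of the epithelial markers in the S100g difference was not tested. In RNA of a whole organ, fewer cells of a type and less RNA per cell cannot be told apart.

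Calb1 encodes calbindin-D28k, the other epithelial calcium shuttle, and is no member of the 9. It stood at 55.2, 42.2 and 14.3 FPKM in control, 40.2, 28.1 and 23.9 in competent and 51.9, 48.4 and 166 in arrested libraries. Its lowest library was control library 3 and its highest arrested library 3, as for S100g. Arrested minus competent was 1.29 ± 0.60 for Calb1 (limma adjusted p = 0.485), which did not pass the threshold. Part of that difference came from the 166 FPKM of arrested library 3, and the difference without that library is not given here. Arrested libraries 1 and 2, at 51.9 and 48.4 FPKM, also lay above all competent libraries. Across the 9 libraries, which share the division by library depth, the log2 levels of Calb1 and S100g had a Pearson r of 0.93 and a Spearman rho of 0.88, and an r of 0.82 over the 8 libraries without arrested library 3. The third calbindin gene, Calb2, was at 0.0769 FPKM in control library 2 and listed at 0 in the other 8.

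**Figure D1:**
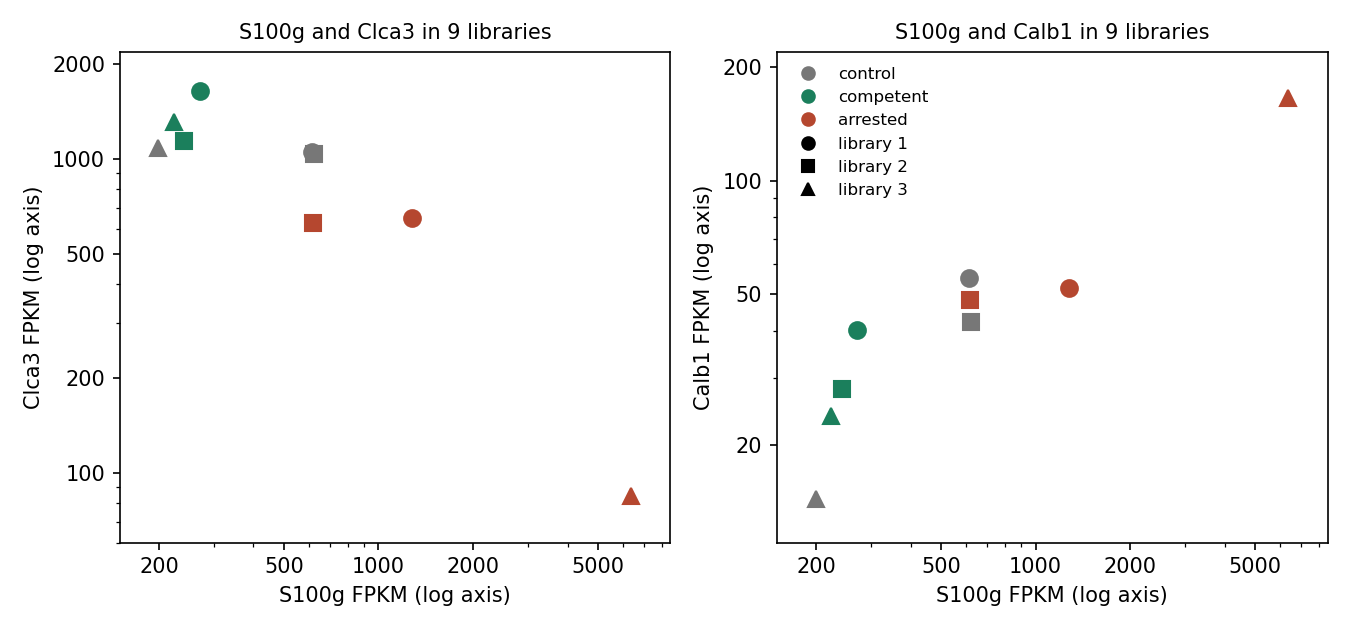
Levels of S100g in FPKM on the horizontal axis against Clca3 (left) and Calb1 (right) on the vertical axis, all log axes, with 1 point per library, colour for the group and shape for the library number. Arrested library 3 is at the far right of both panels, at 6367 FPKM of S100g, with Clca3 at 84.6 and Calb1 at 166 FPKM.

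Clca3 went the opposite way from S100g. CLCA proteins are secreted or membrane-shed regulators of calcium-activated chloride conductance rather than channels, and Clca3 is known from mucus-producing epithelia. The gene lies at chr3:144667501-144695740 on the minus strand (ENSMUSG00000028255), with 1 annotated transcript of 14 exons. Its levels were 1052, 1036 and 1084 FPKM in control, 1648, 1142 and 1310 in competent and 646, 628 and 84.6 in arrested libraries. No groups overlapped: every competent library was above every control library, and every control library was above every arrested library. The means were 1057 ± 24.5, 1367 ± 258 and 453 ± 319 FPKM (SD, n = 3), so the arrested mean was 0.331 of the competent mean. Arrested minus competent was -2.05 ± 0.69 on the log2 scale, and -1.08 without arrested library 3. Arrested minus control was -1.70 ± 0.69, or -0.73 without that library, and competent minus control was 0.35 ± 0.69. Of all genes tested, 52 (0.39%) were ordered in this way with no overlap between the 3 groups, and 34 (0.255%) were ordered in the reverse way.

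Clca3 was the only CLCA gene at a high level. Symbols here are those of the older annotation used, and later symbols of this family may differ. From annotated transcripts, the gene it names Clca1 (ENSMUSG00000056025) stood between 0.674 and 2.13 FPKM over the 9 libraries. Clca2 reached at most 0.943 FPKM, Clca4 at most 0.369 and Clca5 at most 0.253. Clca6 was listed at 0 in all libraries except competent library 2, at 0.0239 FPKM. These genes are neighbours with similar sequences, and reads could be divided between them in the authors' estimates. Over the 9 libraries, the log2 levels of S100g and Clca3 had an r of -0.92 and a rho of -0.80, and an r of -0.75 without arrested library 3. The points share the division by depth, and the order of the group means is part of that r.

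Trpv6 was the calcium entry channel with the highest level. It forms the highly calcium-selective apical channel of transporting epithelia and lies at chr6:41570620-41586404 on the minus strand (ENSMUSG00000029868), with 2 annotated transcripts of which 1 was above 0. Control libraries were at 85.7, 100 and 124 FPKM, competent libraries at 137, 119 and 127 FPKM, and arrested libraries at 75.5, 67.5 and 119 FPKM. Arrested libraries 1 and 2 were the lowest of all 9, while arrested library 3 (118.9 FPKM) was level with competent library 2 (118.7 FPKM), so the groups overlapped by that library. Means were 103 ± 19.6 in control, 128 ± 9.28 in competent and 87.3 ± 27.7 in arrested (SD, n = 3). Arrested minus competent was -0.58 ± 0.23 on the log2 scale, and it was wider without arrested library 3, at -0.83. Competent minus control was 0.31 ± 0.23 and arrested minus control -0.27 ± 0.23. Arrested library 3, which departed furthest from the others in S100g and Clca3, was thus the nearest of its group to the competent libraries in Trpv6.

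The Pearson r of Trpv6 with the other abundant members turned on that library. Over all 9 libraries, Trpv6 and Clca3 had an r of 0.12, and over the 8 libraries without arrested library 3 an r of 0.92. Trpv6 and S100g had an r of -0.31 and, without arrested library 3, of -0.86. In those 8 libraries high Trpv6 went with high Clca3 and low S100g. By rank over all 9 libraries, the Spearman rho of Trpv6 was 0.70 with Clca3 and -0.53 with S100g. The order of the group means is part of all these values. The paralogue Trpv5, the renal form of the channel, was at 0.0762 FPKM in control library 1 and listed at 0 in the other 8 from annotated transcripts, and with assembled transcripts it reached at most 1.64 FPKM.

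**Figure D2:**
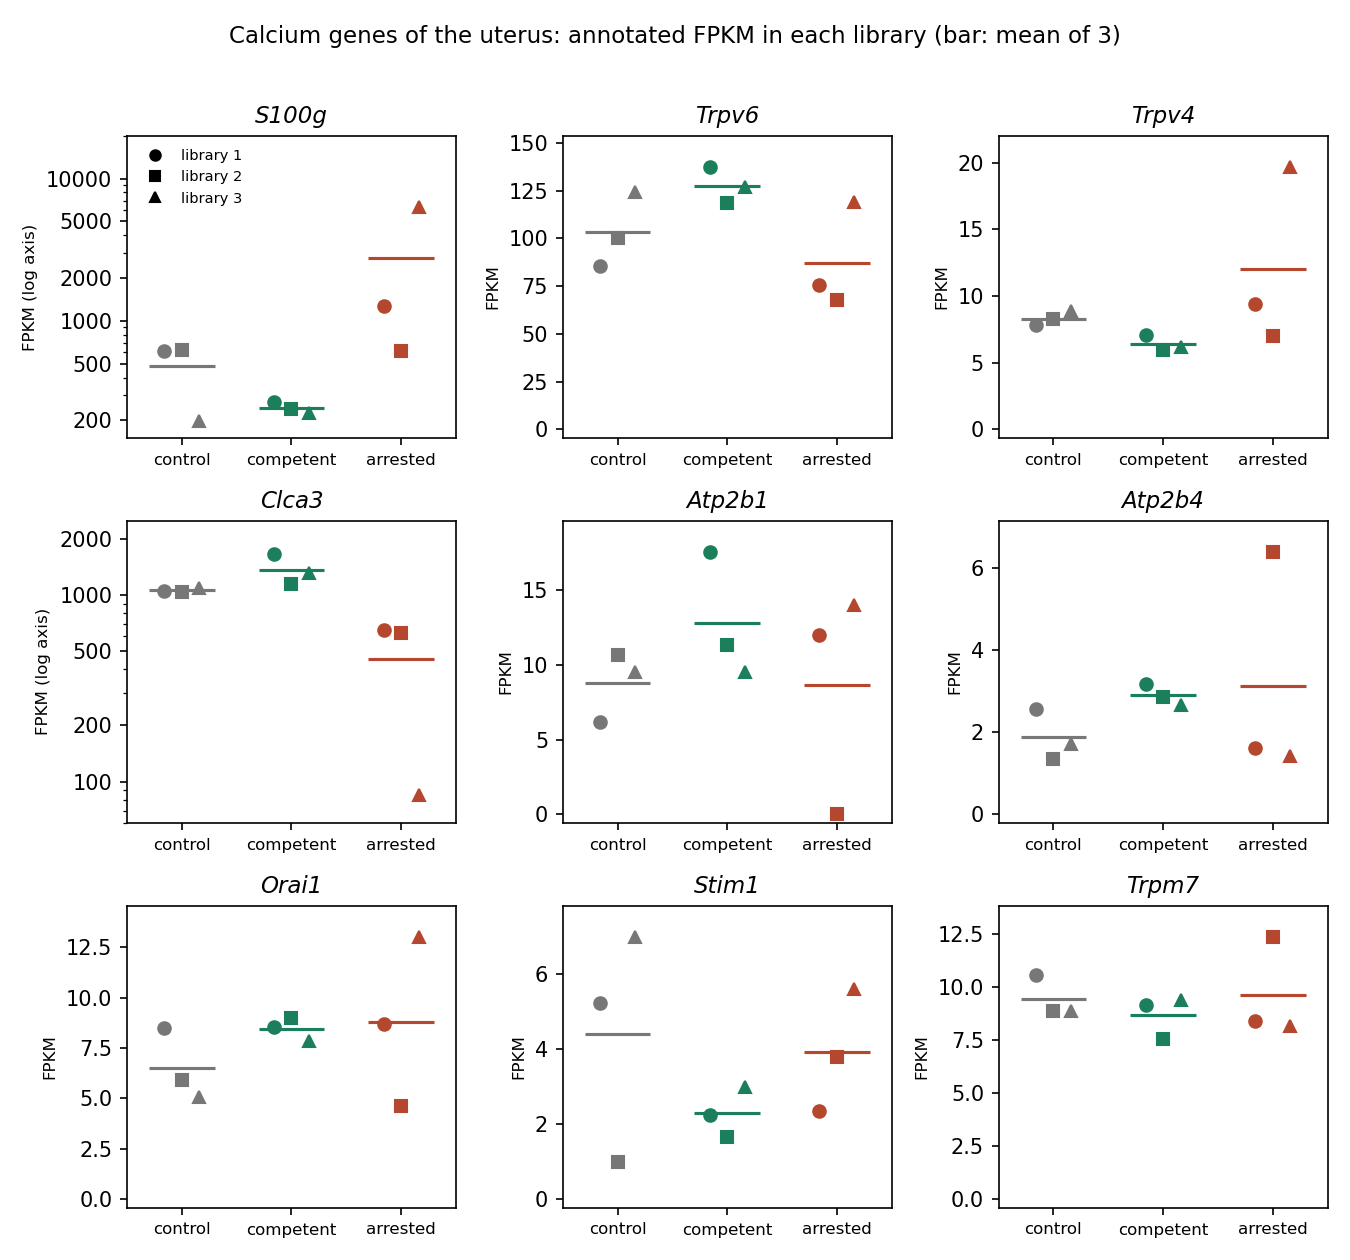
Annotated FPKM of the 9 calcium genes in each library, by group, with shape for the library number and a bar at the mean of 3; the axes of S100g and Clca3 are logarithmic and the others linear. S100g is highest and Clca3 lowest in arrested library 3 (6367 and 84.6 FPKM), and Trpv6 is lowest in arrested library 2 (67.5 FPKM).

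Trpv4, a channel opened by stretch, osmotic swelling and lipid messengers, was lowest in the competent group. It lies at chr5:115072161-115108430 on the minus strand (ENSMUSG00000014158), and 4 of its 7 annotated transcripts were above 0 in some library. Levels were 7.79, 8.26 and 8.88 FPKM in control, 7.07, 5.99 and 6.17 in competent and 9.36, 6.98 and 19.7 in arrested libraries. The competent libraries lay below all controls, and arrested library 3 had the highest level of all. Competent minus control was -0.33 ± 0.32 and arrested minus competent 0.69 ± 0.32, or 0.30 without arrested library 3. Arrested minus control was 0.36 ± 0.32 and turned to -0.03 without arrested library 3. Assembled transcripts added to Trpv4 in some libraries raised competent library 2 to 7.83 FPKM and arrested library 2 to 8.12 FPKM, after which competent and control libraries overlapped and arrested and competent libraries did not. With S100g, Trpv4 had an r of 0.88 over 9 libraries and 0.55 without arrested library 3.

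Trpm7 encodes a magnesium- and calcium-permeable channel fused to a protein kinase, and its annotated level was even across the groups. The gene lies at chr2:126617301-126701966 on the minus strand (ENSMUSG00000027365), with 2 of 11 annotated transcripts above 0. Annotated FPKM were 10.6, 8.85 and 8.85 in control, 9.14, 7.55 and 9.39 in competent and 8.39, 12.3 and 8.15 in arrested libraries. All groups overlapped, and the highest level was in arrested library 2, the library of highest adipocyte markers. The differences were 0.12 for arrested minus competent, -0.11 for competent minus control and 0.01 for arrested minus control, each with an SE of 0.19. Its relative Trpm6 stood at 1.08, 2.01 and 2.05 FPKM in control, 0.696, 1.64 and 2.88 in competent and 2.57, 3.91 and 3.58 in arrested libraries (arrested minus competent 0.74 ± 0.35, limma adjusted p = 0.498). With assembled transcripts Trpm6 stood at 5.22, 5.71 and 8.20 FPKM in control, 11.5, 4.15 and 4.57 in competent and 6.26, 6.00 and 13.2 in arrested libraries, so most of its signal lay outside the annotated values and the groups overlapped.

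A short Trpm7 transcript assembled by the authors' software was present in the competent libraries alone. It spanned chr2:126617301-126621272, the 3′ end of the gene, with 3 exons, 1593 bases, 2 annotated junctions and 0 bases outside annotated exons. Its FPKM were 10.7, 15.6 and 13.2 in competent libraries 1, 2 and 3, and no such transcript was listed in the 6 other libraries. With it, the Trpm7 sum in competent libraries was 19.9, 23.1 and 22.6 FPKM, above all other libraries, and arrested minus competent went from 0.12 to -1.12 ± 0.17. Weighted by transcript length, so that a short fragment counts for its share of the gene, the same difference was -0.30 ± 0.17. The size of the Trpm7 difference therefore depended on how its transcripts were summed.

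Atp2b1, the widely expressed plasma membrane calcium pump, showed how the choice of transcripts can set a value. It lies at chr10:98377786-98488777 on the plus strand (ENSMUSG00000019943), and 1 of its 2 annotated transcripts was above 0. Annotated FPKM were 6.21, 10.7 and 9.504 in control and 17.5, 11.3 and 9.54 in competent libraries. They were 11.98 and 13.99 in arrested libraries 1 and 3, and Atp2b1 was listed at 0 in arrested library 2. An assembled transcript of 21 exons, with 19 annotated junctions, was listed in every library at 10.6 to 33.7 FPKM, the highest in arrested library 2. With it, Atp2b1 stood at 30.8, 29.9 and 23.1 FPKM in control, 28.2, 31.5 and 25.8 in competent and 24.5, 33.7 and 31.0 in arrested libraries, and all groups overlapped. Arrested minus competent was -1.21 ± 0.93 from annotated transcripts, 0.06 without arrested library 2 and 0.05 ± 0.17 with assembled transcripts. Competent minus control was 0.48 ± 0.93 and arrested minus control -0.73 ± 0.93 from annotated transcripts.

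Atp2b4, a plasma membrane calcium pump of muscle and other tissues, was the least expressed pump of the members. It lies at chr1:135599255-135697618 on the minus strand (ENSMUSG00000026463), with 3 of 7 annotated transcripts above 0. Levels were 2.57, 1.35 and 1.71 FPKM in control, 3.18, 2.85 and 2.67 in competent and 1.61, 6.39 and 1.41 in arrested libraries. Competent libraries lay above all controls, and arrested library 2 was far above the rest of its group. Arrested library 2 was also the library with the most adipocyte marker RNA (1302 FPKM), and the part of that in the Atp2b4 value was not tested. Competent minus control was 0.46 ± 0.43, arrested minus control 0.34 ± 0.43 and arrested minus competent -0.11 ± 0.43. With assembled transcripts the competent libraries were at 4.22, 6.82 and 6.89 FPKM and the controls at 3.49, 2.51 and 2.99, still apart, while arrested libraries had no assembled Atp2b4 transcript. Arrested minus competent was then -0.93 ± 0.42, or -1.34 ± 0.53 weighted by length, and arrested minus control turned to -0.14 ± 0.42. Atp2b2 was listed at 0 in 4 libraries from annotated transcripts, but with assembled transcripts it stood at 9.00 to 15.9 FPKM in all 9, so its annotated values are not read as levels. Atp2b3 reached at most 0.0328 FPKM.

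**Figure D3:**
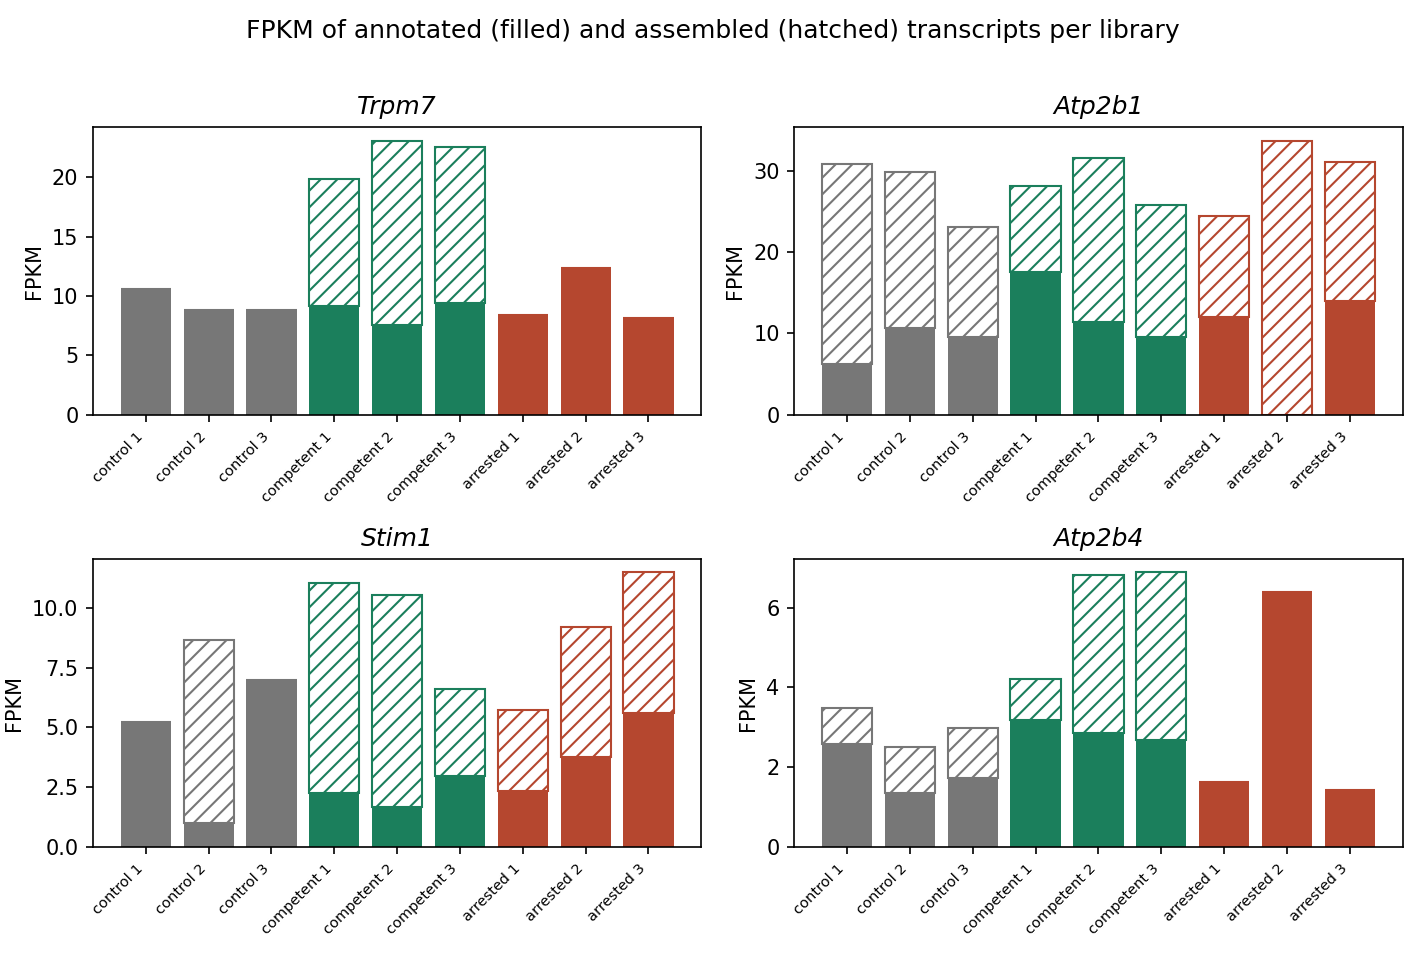
FPKM per library of annotated (filled) and assembled (hatched) transcripts of Trpm7, Atp2b1, Stim1 and Atp2b4, stacked, with colour for the group. Assembled Trpm7 is seen only in the competent libraries (10.7, 15.6 and 13.2 FPKM), and Atp2b1 in arrested library 2 is assembled only (33.7 FPKM).

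Orai1 and Stim1, the pore and the sensor of store-operated entry, were low and did not separate the groups. Orai1 lies at chr5:123465083-123480459 on the plus strand (ENSMUSG00000049686) and stood at 8.50, 5.92 and 5.08 FPKM in control, 8.56, 8.99 and 7.84 in competent and 8.69, 4.63 and 13.02 in arrested libraries. Its differences were -0.05 for arrested minus competent, 0.36 for competent minus control and 0.31 for arrested minus control, each with an SE of 0.33. Arrested libraries 2 and 3 were its lowest and highest libraries. Stim1 lies at chr7:109416338-109585362 on the plus strand (ENSMUSG00000030987) and stood at 5.21, 0.983 and 6.98 FPKM in control, 2.24, 1.64 and 2.97 in competent and 2.34, 3.77 and 5.59 in arrested libraries. Its differences were 0.54 for arrested minus competent, -0.51 for competent minus control and 0.03 for arrested minus control, each with an SE of 0.52. With assembled transcripts Stim1 stood at 5.21, 8.65 and 6.98 FPKM in control and at 11.1, 10.5 and 6.60 in competent libraries, and arrested libraries were at 5.73, 9.21 and 11.5. Competent minus control then changed sign to 0.38 ± 0.29 and arrested minus competent to -0.10 ± 0.29.

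Stim2 and Orai3 stood at higher FPKM than Stim1 and Orai1 in every library. FPKM is a level per transcript length and allows this comparison between genes. Stim2, the sensor tuned to small falls of stored calcium, stood at 17.7 to 32.3 FPKM in control, 27.3 to 28.8 in competent and 19.0 to 23.1 in arrested libraries, and its arrested minus competent difference was -0.38 ± 0.21 (limma adjusted p = 0.571). Orai3 stood at 10.9 to 30.8 FPKM over the 9 libraries and Orai2 at 2.14 to 5.31 FPKM. Neither passed the threshold, with limma adjusted p = 0.601 for Orai3 and 0.553 for Orai2 in arrested minus competent. With assembled transcripts Orai3 was unchanged. Orai2 then stood at 4.73 to 5.13 FPKM in control, 4.41 to 5.63 in competent and 2.75 to 4.14 in arrested libraries, so the arrested libraries lay below the rest.

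Within each group, Clca3, S100g and Trpv6 were the upper 3 genes by mean FPKM, and the annotated FPKM of the other 6 did not exceed 19.7 in any library. With assembled transcripts these 6 reached at most 33.7 FPKM, in Atp2b1, which was still below Trpv6 in every library. In control and competent libraries the order was Clca3, S100g and Trpv6 with no overlap between neighbours. In arrested libraries S100g had the highest mean, and it overlapped with Clca3, which overlapped with Trpv6 through the 84.6 FPKM of arrested library 3. Below them, Trpm7, Atp2b1, Trpv4, Orai1 and Stim1 overlapped one with the next in control libraries.

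**Figure D4:**
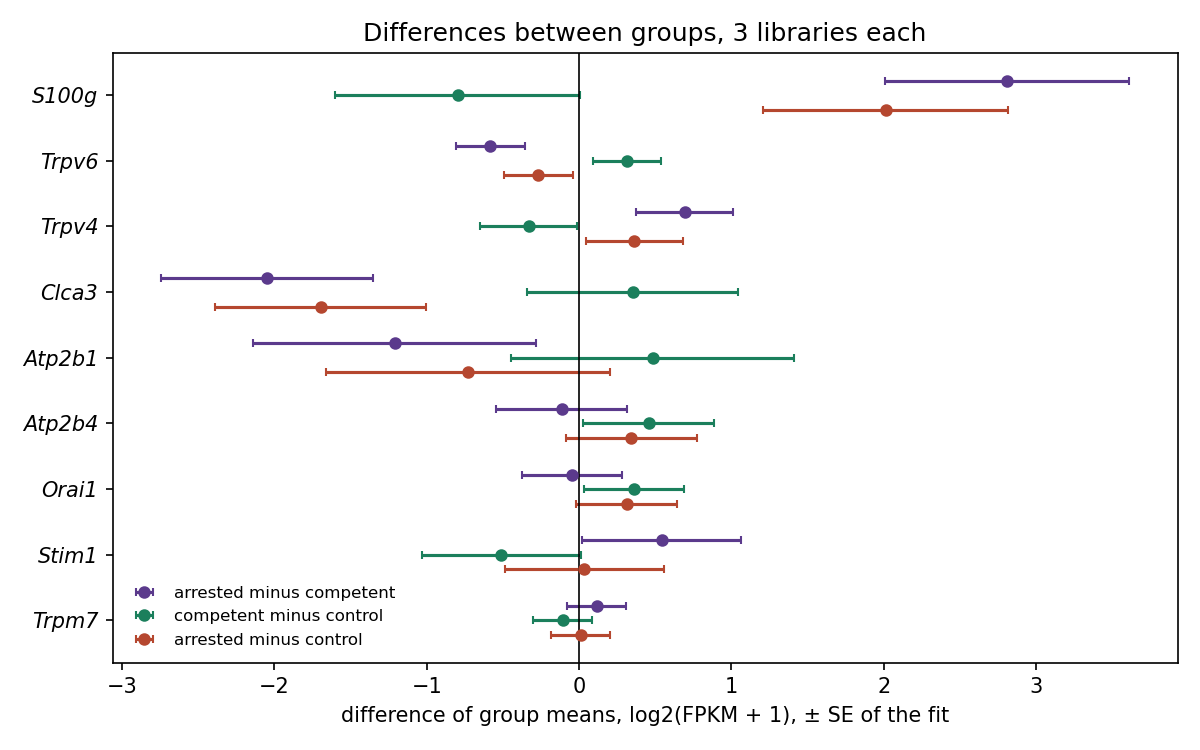
Differences of group means on the log2(FPKM + 1) scale for the 9 calcium genes in the 3 comparisons, with bars of 1 SE of the fit. S100g (2.81) and Clca3 (-2.05) lie furthest from 0 in arrested minus competent, and Trpm7 lies nearest to 0 over the 3 comparisons.

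None of the 9 genes passed the adjusted threshold of 0.05 in limma in any comparison. In arrested minus competent, 18 of all genes tested passed it (0.135%). At an unadjusted p of 0.05 there were 3 members, beside 10.9% of all genes tested: S100g was higher (5.31% of all genes) and Clca3 and Trpv6 were lower (5.61%). In competent minus control, 5 of all genes passed (0.0375%). There, 0 members were at an unadjusted p of 0.05, beside 5.17% of all genes tested, of which 2.59% were higher and 2.58% lower. In arrested minus control, 6 of all genes passed (0.045%). There, 2 members were at an unadjusted p of 0.05, beside 5.26% of all genes: S100g was higher (2.08%) and Clca3 lower (3.18%). Groups did not overlap for 2 members in arrested minus competent (16.5% of all genes), with S100g higher (7.73%) and Clca3 lower (8.75%). They did not overlap for 3 members in competent minus control (14.8%), with Clca3 and Atp2b4 higher (6.72%) and Trpv4 lower (8.12%). In arrested minus control they did not overlap for 1 member (8.84%), Clca3, which was lower (5.36%), while 3.49% of all genes were higher. These counts describe genes that were chosen on the same values, and nothing is read from them.

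Beyond the 9 genes, 129 other calcium genes of 12 roles were listed, of which 128 were in the annotation and 69 passed the filter on low values. None passed the threshold in limma in any comparison. The smallest adjusted p in limma was 0.327 in arrested minus competent, 0.945 in competent minus control and 0.904 in arrested minus control. At an unadjusted p of 0.05, arrested minus competent held 1 higher and 4 lower genes (10.9% of all genes tested), competent minus control 0 and 1 (5.17%), and arrested minus control 0 and 2 (5.26%). With assembled transcripts, which left 79 of the listed genes above the filter, these counts were 13, 0 and 6 in all. Beside them, 1781, 794 and 825 of all 14254 genes tested in that setting were at an unadjusted p of 0.05. None of the 79 passed the adjusted threshold in limma. The median difference of the 69 genes was -0.08 in arrested minus competent, beside -0.01 over all genes tested, with 28 genes higher and 41 lower. It was -0.02 in competent minus control and -0.05 in arrested minus control, beside -0.01 and -0.02 over all genes tested. The 69 include 8 genes listed at 0 in some library, among them Atp2a2, Esr1 and Pgr, whose annotated values are not read as levels. They were left in these medians and counts.

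Itpr2, an inositol trisphosphate receptor that releases stored calcium, had the smallest p among these genes. It stood at 17.7, 15.1 and 10.3 FPKM in control, 14.9, 5.43 and 7.75 in competent and 17.3, 23.2 and 24.1 in arrested libraries. All arrested libraries lay above all competent libraries, with a difference of 1.21 ± 0.35 (limma adjusted p = 0.327). With assembled transcripts they stayed apart, at 14.9, 11.6 and 11.3 FPKM in competent and 25.9, 23.2 and 36.3 in arrested libraries. The calcium-binding chaperone of the reticulum, Calr, stood at 272, 334 and 235 FPKM in control, 282, 351 and 354 in competent and 217, 198 and 256 in arrested libraries, a difference of -0.55 ± 0.17 between arrested and competent (limma adjusted p = 0.361). With assembled transcripts, Calr in arrested library 3 was at 423 FPKM, above all competent libraries. Of the 11 genes of calcium binding in the reticulum lumen, 9 were lower and 2 higher in arrested than in competent libraries. Over all genes tested, 6781 were lower and 6495 higher. In that role 0 passed the threshold in limma, with 2 lower at an unadjusted p of 0.05, beside 5.61% of all genes. The other of these 2, the Golgi calcium-binding protein Nucb1, had an arrested minus competent difference of -0.44 ± 0.17 (limma adjusted p = 0.419).

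Genes of the remaining roles did not pass the threshold in limma either. Calm3, a calmodulin gene, stood at 199 to 237 FPKM in competent and 112 to 191 in arrested libraries, with a difference of -0.50 ± 0.19 (limma adjusted p = 0.408). Jph2, a junctophilin that holds the reticulum near the plasma membrane of muscle, stood at 9.43, 19.0 and 14.9 FPKM in competent and 1.46, 15.2 and 3.26 in arrested libraries (-1.43 ± 0.62, limma adjusted p = 0.457). Its low values in arrested libraries 1 and 3 went with low summed smooth muscle markers, at 879 and 1212 FPKM beside 2164 in arrested library 2, and their part in the difference was not tested. Mcu, the pore of mitochondrial calcium uptake, stood at 10.8 to 12.5 FPKM in competent and 7.11 to 9.93 in arrested libraries (-0.37 ± 0.16, limma adjusted p = 0.472). The channel subunit gene Cacnb3 differed by 0.20 ± 0.33 between arrested and competent libraries. The T-type channel gene Cacna1g differed by 0.08 ± 0.42 from annotated transcripts. With assembled transcripts, however, Cacna1g stood at 4.48, 6.92 and 5.12 FPKM in competent and 1.63, 2.49 and 4.22 in arrested libraries, without overlap.

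Of 9 other TRP and polycystin channel genes, 5 were higher and 4 lower in arrested than in competent libraries, and Trpc2 differed by 0.51 ± 0.27. Of the plasma membrane exchangers, Slc24a3 differed by -0.68 ± 0.35 and Slc8a2 by -0.35 ± 0.35. With assembled transcripts, arrested and competent libraries overlapped for both. Slc8a1 was listed at 0 in 8 of 9 libraries from annotated transcripts and went the other way with assembled ones. It then stood at 5.79 to 6.20 FPKM in control, 5.42 to 7.42 in competent and 8.03 to 13.2 in arrested libraries. Itpr1, another release channel gene, differed by 0.46 ± 0.36 from annotated transcripts, and the Golgi pump gene Atp2c2 by 0.25 ± 0.28. With assembled transcripts Itpr1 stood at 10.5 to 13.2 FPKM in competent and 10.6 to 14.3 in arrested libraries. Of 10 other S100 genes, 6 were higher and 4 lower. The neutrophil S100 genes S100a8 and S100a9 were highest in control library 2, at 11.2 and 10.2 FPKM, which also had the highest summed neutrophil markers, a list that holds both genes. Calml3, a calmodulin-like gene of epithelia, stood at 5.42 to 5.58 FPKM in competent and 1.06 to 3.96 in arrested libraries (-0.93 ± 0.44, limma adjusted p = 0.496). Micu3, a regulator of mitochondrial uptake, was listed at 0 in competent library 2, and the scramblase and channel gene Ano6 in 4 of 9 libraries, so neither difference is described.

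The calcium pump of the reticulum and the steroid receptors could not be read from annotated transcripts. Atp2a2 was listed at 0 in control library 2, where its sum with assembled transcripts was 43.2 FPKM. In that form Atp2a2 stood at 38.4 to 43.2 FPKM in control, 41.3 to 49.8 in competent and 31.6 to 39.0 in arrested libraries. The arrested libraries lay below the competent ones and overlapped with the controls. Esr1 was listed at 0 in 8 of 9 libraries and Pgr in 6 of 9. With assembled transcripts Esr1 stood at 43.3 to 103 FPKM and Pgr at 26.5 to 48.5 FPKM, so their annotated values of 0 were not a lack of RNA. The annotated differences of these 3 genes are therefore not described.

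**Figure D5:**
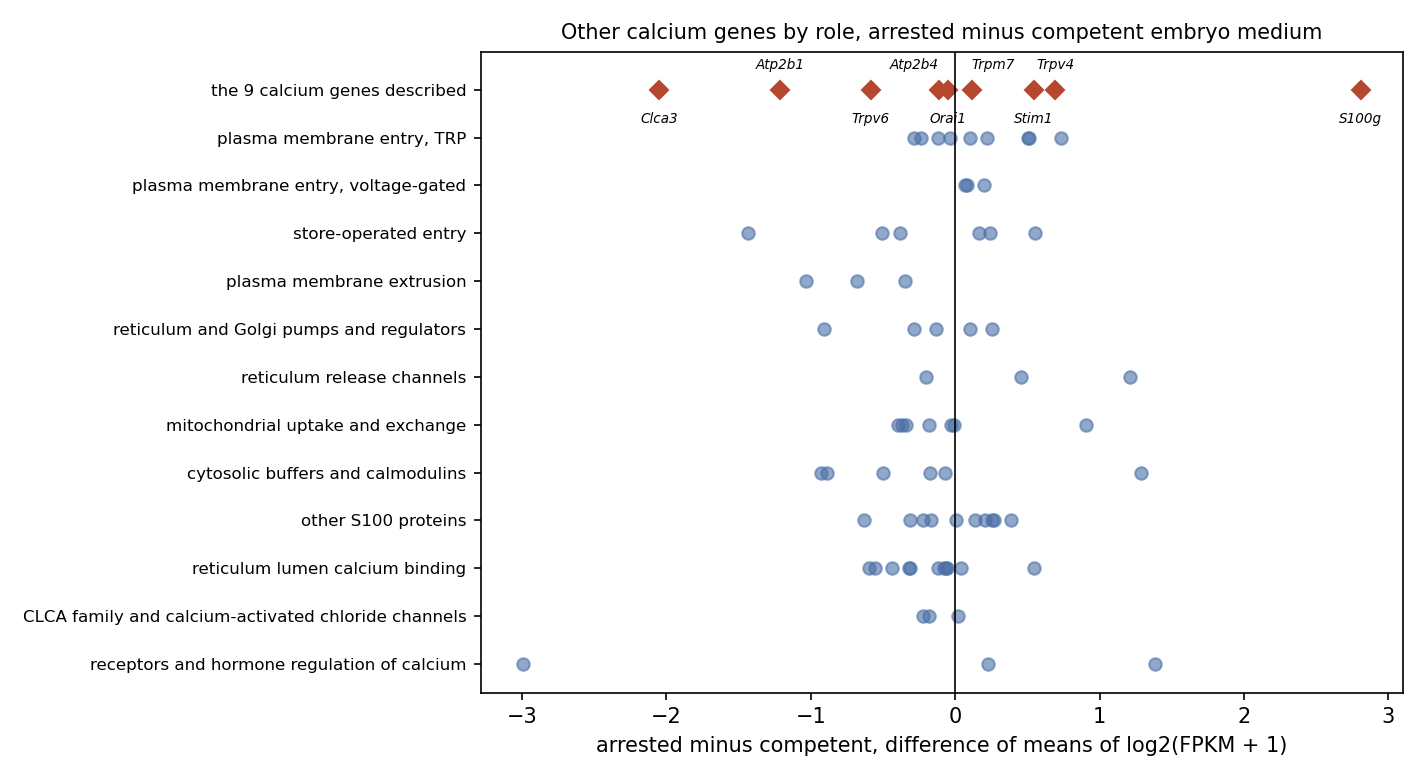
Arrested minus competent differences on the log2(FPKM + 1) scale for the 69 other calcium genes tested, 1 point per gene and 1 row per role, with the 9 calcium genes named in the upper row. S100g (2.81) lies to the right of all other points, and the far left point of the lowest row is Pgr, listed at 0 in 6 of 9 libraries. Of the 69 genes, 8 were listed at 0 in some library.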

How the data were processed

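RNA of mouse uterus was sequenced in 9 libraries, 3 per group, grouped by the treatment in the labels. Per the submitters' processing notes, the build was mm9 and the tools Bowtie 0.12.2 and Cufflinks, whose version and options the labels and headers leave unnamed. The transcript tables deposited by the authors give FPKM with lower and upper bounds. They also give the deposited coverage signal of each transcript. The table of control library 1 has no header line, so its columns were taken by order. Each library listed 92839 annotated transcripts, and 73.4 to 74.7% of them were listed at 0. Coordinates were those of GENCODE vM1 (NCBIM37) for 98.9%. Such a 0 can be a failed estimate, with the reads assigned to an assembled transcript.

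Gene values were summed with Python 3.11.15 and pandas 2.3.3. FPKM were used as deposited (median-ratio size factors 0.945 to 1.06). A mean of 1 FPKM or more left 13333 genes. Their log2(FPKM + 1) values were fitted by limma 3.58.1 (R 4.3.3) with 3 group means over all 9 libraries and a mean trend (8.07 total degrees of freedom). P-values were adjusted over all genes tested by Benjamini-Hochberg. This scale understates changes of low genes. The fit was also run on simulated normal values, drawn independently for each gene and library. They do not mimic failed estimates or an outlying library, so nothing about these data is read from that run. The 9 members and the lists of calcium genes and cell type markers were chosen with earlier results of these data known. Named genes were the members, their paralogues or partners, any called calcium gene, the 2 of smallest F test p per role, and the 3 genes most like each member. Slc8a1 was named outside these rules, for its values with assembled transcripts. Same-numbered libraries of different groups did not deviate together (r = -0.05 to 0.10), so the numbers were not used as pairs. Alternatives covered the transcripts summed, pseudocount, filter, scaling, trend, a replicate block and leaving out each library.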

Additional observations from a re-analysis of the deposited data

Results flagged for a closer look

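Trpm7 carried a signal in the assembled transcripts, which the gene values of the 3 comparisons do not use. The mean over the 3 competent libraries was 13.2 FPKM, and no assembled Trpm7 transcript was listed in the control or arrested libraries. The files give no reads, so whether the 3′ end of Trpm7 was counted apart from the full transcript in the competent libraries alone was not tested.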

How the results depend on the processing

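The counts of all genes called were 18 in arrested minus competent, 5 in competent minus control and 6 in arrested minus control. In arrested minus competent they became 11 with the most abundant transcript of each gene, 11 without genes listed at 0 in some libraries but averaging over 5 FPKM in the others (probable failed estimates), 10 without the mean trend, and 57 with assembled transcripts weighted by length, a setting added after seeing the data. In competent minus control they became 2 with assembled transcripts, 8 without the filter, 3 without those probable failed estimates and 3 with assembled transcripts weighted by length. In arrested minus control they became 3 with the most abundant transcript and 1 without those probable failed estimates. With the replicate number as a block the counts were 4, 1 and 5; the numbers did not pair the libraries. Leaving out 1 library gave 11 to 41, 4 to 15 and 7 to 24 calls, with 41 in arrested minus competent without arrested library 2 and also without arrested library 3. The other calcium genes stayed at 0 calls in all 63 alternative counts. Of 558 alternative differences of the 9 members, 527 kept their sign and 31 did not, and 0 were called. S100g, Clca3 and Trpv6 kept theirs in all 21 alternatives and all 3 comparisons. The alternatives on transcripts summed, filter, trend and block could barely move these genes, if at all. Each had 1 transcript above 0 and no assembled transcript. Leaving out 1 library gave arrested minus competent of 1.86 to 3.54 for S100g, -2.54 to -1.08 for Clca3 and -0.83 to -0.42 for Trpv6. Depth in reads is unknown; 1 FPKM stood for a coverage of 1.09 to 1.98, so the lower members are measured less precisely.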

Other observations

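The genes most like each member were found by Pearson r of log2(FPKM + 1) over the 9 libraries among 11292 genes. They are given as a description, since the libraries share the division by depth and arrested library 3 weighs heavily. S100g was most like Slc1a1, a glutamate transporter (r = 0.98), Them5, a mitochondrial thioesterase (0.97), and Hsd11b1, the enzyme that regenerates active glucocorticoid (0.96). Without arrested library 3 these were 0.96, 0.91 and 0.93. Hsd11b1 stood at 10.3, 14.9 and 5.94 FPKM in control, 5.56, 5.07 and 2.59 in competent and 23.4, 10.4 and 59.7 in arrested libraries. It was highest in the library where S100g was highest.

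Clca3 was most like Padi2, a citrullinating enzyme (r = 0.98), Limd1 (0.98) and Spink12, a protease inhibitor of the Kazal type (0.98), and without arrested library 3 these were 0.87, 0.82 and 0.93. Padi2 stood at 119, 127 and 116 FPKM in control, 117, 118 and 131 in competent and 66.8, 59.7 and 14.1 in arrested libraries. All arrested libraries were below all others. Trpv6 was most like Abcf1, Gsdmd, a pore-forming protein of pyroptosis, and the clock gene Arntl, each at r = 0.95 with and without arrested library 3.

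Trpv4 was most like the prostaglandin receptor gene Ptger2, the serine protease gene Tmprss2 and Rgnef, at r = 0.97 for each. Without arrested library 3 these were 0.83, 0.94 and 0.81. Ptger2 stood at 10.9 FPKM in arrested library 3 and at most 3.06 in the other 8 libraries. For the lower members, Trpm7 was most like Nr1d2 (0.94), Cav2 and Usp11, and Atp2b1 like Clptm1 (0.99), Ddx28 and Jub. Atp2b4 was most like Baiap2l2 (0.95), Mms22l and Peg3, Orai1 like Kti12 (0.93), Gnpnat1 and H47, and Stim1 like Cmtm3 (0.94), Vps11 and Tbc1d25. Atp2b1 was listed at 0 in arrested library 2, where its assembled transcript was at 33.7 FPKM and where Clptm1, Ddx28 and Jub were each lowest. The Spearman rho of Atp2b1 with these genes was 0.68, 0.63 and 0.65, and the part of that 0 in the r was not tested. Cmtm3 was listed at 0 in control library 2, where Stim1 was lowest.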
